A study of Mus musculus with 18 samples.

Results

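Dopamine neurons of the ventral tegmental area (VTA) were compared between mice given the toxin MPTP for 2 days and saline controls. The comparison rests on the 3 arrays titled as VTA after 2 days of MPTP and the 3 titled as control VTA, which are 6 of the 18 arrays of the study, and it covers all 18193 genes measured. The other 12 arrays hold VTA neurons after 10 days of MPTP and the 3 matching groups from the substantia nigra (SN), the neighbouring midbrain region.

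All mice were adult, on the C57Bl/6 strain, and carried the hTH-GFP transgene, in which sequences of the human tyrosine hydroxylase gene drive a green fluorescent protein. They lived alone for 9 weeks and were injected with MPTP (4 mg/kg) on 2 or 10 days, controls with saline on 10 days. Brains were taken 7 days after dosing ended. The neurons were cut from frozen brain by laser capture, and their RNA was amplified before hybridisation to Affymetrix mouse arrays. The 2 day group therefore differs from its controls in the number of injections as well as in MPTP, and the sample descriptions call the controls untreated where the protocol gives them saline. The labels call the replicates biological but tie no array to a mouse and give neither the number of mice per array nor how neurons were recognised before capture.

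MPTP reaches the brain and is oxidised by monoamine oxidase B, an enzyme found mainly in glia and serotonin neurons, to a toxic ion that the dopamine transporter carries into dopamine neurons. Inside the cell the ion blocks complex I of the mitochondrial respiratory chain, and the vesicular monoamine transporter can hold it away from the mitochondria. VTA neurons, which project to the ventral striatum and the cortex, survive both MPTP and Parkinson disease better than the neurons of the SN.

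The values are log2 signals from which each probe set's median over the 18 arrays has been taken, so a value of 0 is the middle of the study and absolute levels cannot be read. For that reason it could not be checked whether defining markers of dopamine neurons were present, only whether they were higher or lower between arrays. Array 1 of VTA after 2 days stood apart. It had the widest spread of all arrays, with a median absolute deviation of 0.269 against 0.123 to 0.235 on the others, and lay at -116.2 on a first principal component that held 16.2% of the variance, against -14.7 to 23.3 for the others. Where a named gene's difference from controls moved by over 1.5 times without it, both values are given. Errors of differences are standard errors (SE) of a limma model over the 18 arrays, and those of group means are standard deviations (SD) of 3 arrays. Changes below are in log2 units of 2 days minus control unless a fold is named.

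After 2 days of MPTP, 2 of 18193 VTA genes passed an adjusted p under 0.05 (limma, Benjamini-Hochberg), which is 0.011%: Wdfy1 fell and Capsl rose. At an unadjusted p under 0.05 there were 1467 genes (8.06%), against 910 given by chance, with 754 higher (4.14%) and 713 lower (3.92%). The 3 arrays after 2 days did not overlap the 3 control arrays in 1822 genes (10%), lying all above in 927 (5.1%) and all below in 895 (4.92%). Random order of 3 against 3 arrays gives about this share, so lack of overlap alone does not set a gene apart. The difference exceeded a factor of 2 in 164 genes, 67 higher and 97 lower. Without array 1 of the 2 day group, 703 genes (3.86%) were higher and 652 (3.58%) lower at an unadjusted p under 0.05. The median difference of all genes was -0.01, with 8810 higher (48.4%) and 9383 lower. A limma model of these 6 arrays alone, with fewer arrays to estimate the spread, called 0 genes, with a smallest adjusted p of 0.788 and 932 genes at an unadjusted p under 0.05.

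Wdfy1 encodes a protein that binds phosphoinositide lipids of endosomes through a FYVE domain and takes part in signalling by Toll-like receptors 3 and 4. On the control arrays its signal was 0.07, 0.38 and 0.09. On the arrays after 2 days of MPTP it was -1.16, -0.82 and -0.89. All 3 treated arrays thus lay well below every control array. The mean went from 0.18 ± 0.17 (SD, n = 3) to -0.95 ± 0.18, a fall of 2.19-fold (log2 -1.13 ± 0.14 SE, adjusted p = 0.00515 by limma). After 10 days of MPTP the signals were 0.04, -0.02 and 0.21, far above the 2 day arrays, and the 2 day arrays were lower than these by -1.03 ± 0.14 (adjusted p = 0.017).

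The fall of Wdfy1 was largest in 3 of its 5 probe sets. They were 1424749_at at -1.75 ± 0.23, 1435588_at at -1.71 ± 0.24 and 1437358_at at -1.97 ± 0.32. The other two were 1447543_at at -0.25 ± 0.20 and 1453426_a_at at 0.02 ± 0.22. Tested as single probe sets, 5 of 34945 passed (0.0143%), and 1424749_at and 1435588_at were among them, each with an adjusted p of 0.023, while 1437358_at had an adjusted p of 0.096. In the SN, Wdfy1 was at -0.81 ± 0.14 after 2 days, and its VTA and SN responses differed by -0.32 ± 0.19 (adjusted p = 1). Omission of VTA control array 2 left the VTA difference at -1.03 with an adjusted p of 0.0518. Omission of any other of the 6 arrays kept the call, and use of the probe set of largest SD in place of the average ended it (adjusted p = 0.125). Among the 20 measured proteins with lipid-binding FYVE domains, the median was 0.02. Eea1, a tether of early endosomes, was higher at 0.52 ± 0.16 and Wdfy2 was lower at -0.43 ± 0.16, with adjusted p of 0.406 and 0.519.

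**Figure D1:**
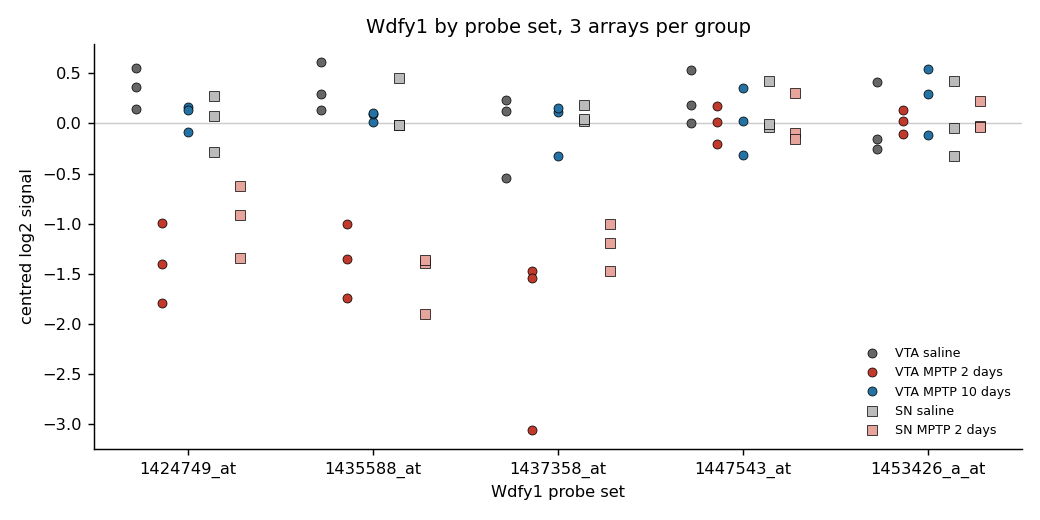
Centred log2 signal of the 5 Wdfy1 probe sets (x axis) on each array, with circles for VTA and squares for SN and 3 arrays per group. In 3 probe sets the VTA arrays after 2 days lie below the VTA saline and 10 day arrays, and the 2 probe sets at -0.25 and 0.02 overlap.

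Capsl, which encodes a calcium-binding protein related to calcyphosine, rose 5.57-fold. Its control signals were -2.08, -1.48 and -0.73, and its signals after 2 days were 0.62, 0.96 and 1.56. The groups were far apart although the control arrays spread widely (SD 0.67). The difference was 2.48 ± 0.37 (adjusted p = 0.0414), from a single probe set. The control arrays also lay below those after 10 days and below the SN controls. The arrays after 10 days were at 0.15, -0.37 and -0.35, and SN controls at -0.15, -0.34 and -0.21. Omission of any array but VTA control array 3 ended the call, the difference then lying between 2.15 and 2.69 and the adjusted p between 0.0669 and 0.181, and so did repeated quantile normalization, at an adjusted p of 0.292. The 2 day and 10 day arrays differed by 1.24 ± 0.37 (adjusted p = 0.564).

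Capsl was read as part of a list of 38 measured genes of motile cilia, the beating hairs that line the ventricles. Of these, 27 were higher after 2 days and 11 lower, with a median of 0.14, and 6 were higher and 0 lower at an unadjusted p under 0.05, where 48.4% of all genes were higher and 4.14% higher at that p. The median was 0.08 without VTA control array 2 and reached 0.29 over omissions of 1 array. Besides Capsl they were Rfx3, a transcription factor of ciliated cells, at 0.65 ± 0.20, Meig1 at 1.01 ± 0.34, Pifo at 0.61 ± 0.21 (0.36 without array 1 of the 2 day group), Stoml3, a membrane protein of cilia and sensory neurons, at 0.61 ± 0.24, and the dynein gene Dnali1 at 0.38 ± 0.17. None of these 5 passed over all genes. In the SN after 2 days the cilia list had a median of 0.11 with 28 higher. In VTA after 10 days, against the same controls, its median was 0.09 with 25 higher. The 13 markers of ependyma, the ciliated lining of the ventricles, had a median of 0.45 (0.26 without control array 2), with 9 higher, and overlap the cilia list. Their mean signal per array was -0.26, -0.39 and -0.05 in controls and 0.10, -0.07 and 0.29 after 2 days. Ccdc153 was at 1.90 ± 0.50, with controls at -2.08, -1.13 and -1.91 and 2 day arrays at 0.08, -0.07 and 0.58, whereas Rarres2 was at -0.72 ± 0.21. Against the same controls Ccdc153 was at 1.965 ± 0.50 after 10 days. Foxj1, the master regulator of motile cilia, was at 0.08 ± 0.40, with array 1 of the 2 day group at 1.22 and the others at -0.35 and -0.33, and without that array it was at -0.44. The part of ependymal RNA in the rise of Capsl was not tested.

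The region around the start of Capsl is shown because Capsl is a called gene of large change, and it comes from a RefSeq promoter table (GRCm38.p6, 250 bases before to 50 after the start, 300 in all). It lies at chr15:9435778-9436077 on the plus strand. The X-box bound by RFX factors, searched on both strands, occurs in 1.53% of the 32851 windows of the table and has no match in this one, so no base is in capitals.
Capsl: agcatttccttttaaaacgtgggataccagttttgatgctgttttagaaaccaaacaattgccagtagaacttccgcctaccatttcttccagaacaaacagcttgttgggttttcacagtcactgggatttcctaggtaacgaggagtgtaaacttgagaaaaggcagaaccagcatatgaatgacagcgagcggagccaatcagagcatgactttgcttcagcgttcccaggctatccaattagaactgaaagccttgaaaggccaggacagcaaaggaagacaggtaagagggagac

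Genes of the heat shock response were higher in part. Hspa1b and Hspa1a encode the inducible HSP70 chaperones, which refold damaged proteins and are made when the factor HSF1 binds heat shock elements at their promoters. Hspa1b was at 0.01, -0.58 and -0.02 in controls and at 1.25, 0.78 and 1.29 after 2 days. Its groups did not overlap, and its difference was 1.31 ± 0.24, a factor of 2.47 (adjusted p = 0.167). Each of its 3 probe sets was higher, from 0.91 to 1.56, and 1427127_x_at passed by itself at 1.44 ± 0.20 (adjusted p = 0.023). After 10 days Hspa1b was back among the controls, at -0.10, -0.28 and -0.37, and the 2 day arrays were above these by 1.36 ± 0.24 (adjusted p = 0.0638). In the SN it was at 0.97 ± 0.24 after 2 days.

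Hspa1a was at -0.19, -0.29 and -0.35 in controls and at 1.27, -0.06 and 0.68 after 2 days, a difference of 0.90 ± 0.34 that was 0.58 without array 1 of the 2 day group. Hspa1a and Hspa1b are near-identical neighbours, so probes may read both. The similarity extends to their promoters, which are identical at 296 of 300 bases. Both are printed with the heat shock element GAANNTTC in capitals, a sequence that reads the same on both strands. Its first base is at position -104, counted from the start of each gene, and it is found in 7.86% of all promoter windows. The windows are chr17:34959189-34959488 for Hspa1b and chr17:34972107-34972406 for Hspa1a, both on the minus strand.
Hspa1b: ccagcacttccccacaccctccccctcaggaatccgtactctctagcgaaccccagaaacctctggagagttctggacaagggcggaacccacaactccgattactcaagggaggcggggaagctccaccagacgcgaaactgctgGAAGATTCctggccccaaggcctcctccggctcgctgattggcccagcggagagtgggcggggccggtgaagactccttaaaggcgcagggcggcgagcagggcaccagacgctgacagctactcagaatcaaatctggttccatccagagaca
Hspa1a: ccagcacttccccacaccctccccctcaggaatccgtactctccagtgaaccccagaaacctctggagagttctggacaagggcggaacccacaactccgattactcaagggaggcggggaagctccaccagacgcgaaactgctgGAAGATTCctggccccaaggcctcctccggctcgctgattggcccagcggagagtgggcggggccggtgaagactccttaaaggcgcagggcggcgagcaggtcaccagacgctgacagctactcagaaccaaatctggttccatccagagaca

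Over the 38 measured heat shock chaperones and their partners, 26 were higher and 12 lower, with a median of 0.08. At an unadjusted p under 0.05, where 4.14% of all genes were higher and 3.92% lower, 1 was lower and 5 were higher. Besides the HSP70 genes these were Hspa2, an HSP70 of testis and brain, at 0.39 ± 0.14, the HSP90 activator gene Ahsa1 at 0.38 ± 0.16 and the constitutive chaperone gene Hspa8 at 0.38 ± 0.13. The Hspa8 value came from 1 of its 4 probe sets, at 1.62, with the rest between -0.08 and -0.01. Hspb8, a small heat shock protein gene, was lower at -0.48 ± 0.22 (-0.31 without array 1 of the 2 day group). Of the list 5 members lay wholly above the controls, where 5.1% of all genes did. None of the list passed over all genes.

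Clock genes showed a similar course over time. Per2, a repressor of the circadian clock that also responds to stress hormones, was at -0.04, -0.40 and 0.43 in controls, at 0.91, 0.61 and 0.61 after 2 days and at -0.60, -0.40 and -0.28 after 10 days. The 2 day arrays lay above all the other VTA arrays. Against controls the difference was 0.71 ± 0.17 (adjusted p = 0.305), and against 10 days Per2 was higher by 1.14 ± 0.17 (adjusted p = 0.0291), which passed. In the SN after 2 days Per2 was at 1.03 ± 0.17. Per3, a paralog, was at -0.32, -0.22 and -0.45 in controls and at 0.06, 0.38 and 0.27 after 2 days, with all 6 probe sets higher and a difference of 0.57 ± 0.14. Cry1, the partner of the PER proteins, was at 0.51 ± 0.21. Per1 was at 0.42 ± 0.33 (0.11 without array 1 of the 2 day group) and its groups overlapped.

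Of 21 clock genes 15 were higher and 6 lower, with a median of 0.20 (0.13 without array 1 of the 2 day group) and 5 lying wholly above the controls, where 5.1% of all genes did. After 10 days the median of the list against the same controls was -0.06, and in the SN after 2 days it was 0.28. The labels give no time of day at death, so its part in these values was not tested. The promoter of Per3 (chr4:151044616-151044915, minus strand) is printed because it holds 2 copies of the D-box TTATGTAA, at positions -205 and -158, in capitals. The D-box is bound by the clock factors DBP and TEF. The motif TTATGTAA or TTACGTAA, searched on both strands, occurs in 1.06% of all promoter windows, and the E-box CACGTG, found in 7.15%, is in the window of Cry1 and in 1 of the 2 windows of Per1.
Per3: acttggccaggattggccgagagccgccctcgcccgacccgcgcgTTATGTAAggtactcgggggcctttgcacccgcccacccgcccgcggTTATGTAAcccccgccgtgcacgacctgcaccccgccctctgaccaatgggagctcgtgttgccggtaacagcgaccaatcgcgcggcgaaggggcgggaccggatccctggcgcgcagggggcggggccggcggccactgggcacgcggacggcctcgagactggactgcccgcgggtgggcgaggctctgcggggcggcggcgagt

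Plin4 and Fmo2, genes that glucocorticoids raise in brain and other tissues, followed the same order. Plin4, which encodes a coat protein of lipid droplets, was at -0.41, 0.10 and -0.67 in controls, at 0.49, 0.57 and 1.18 after 2 days and at -1.25, -1.11 and -0.68 after 10 days. Each of the 2 day arrays was above each of the other VTA arrays. The difference from controls was 1.07 ± 0.27 (adjusted p = 0.348), and that from 10 days was 1.76 ± 0.27 (adjusted p = 0.0291), which passed. Fmo2, a flavin monooxygenase gene, was at 0.82 ± 0.17 against controls and 0.99 ± 0.17 against 10 days (adjusted p = 0.167 and adjusted p = 0.0596), with 4 of its 5 probe sets higher. Of the 18 measured glucocorticoid-responsive genes, however, 8 were higher and 10 lower, with a median of -0.01, and only Plin4 and Fmo2 were at an unadjusted p under 0.05. Fkbp5, a standard marker of glucocorticoid action, was at 0.21 ± 0.22. In the SN after 2 days Plin4 was at 0.72 ± 0.27 and Fmo2 at 1.08 ± 0.17.

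**Figure D2:**
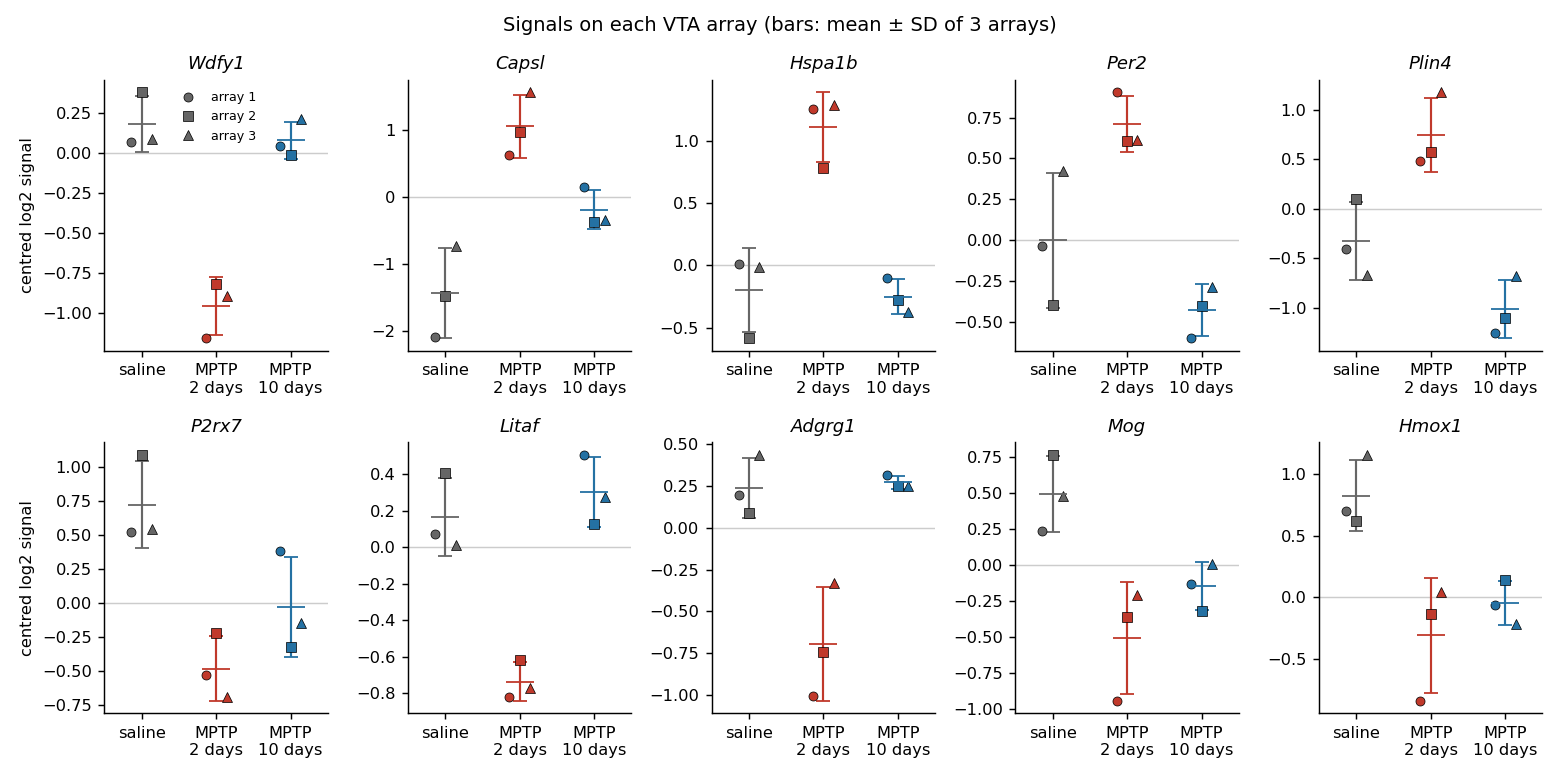
Centred log2 signal of 10 genes on the VTA arrays (y axis) by treatment, with symbols for array number and bars for mean ± SD of 3 arrays. In each panel the 3 arrays after 2 days do not overlap the saline arrays, as in Wdfy1 with means of 0.18 in saline and -0.95 after 2 days, and in Litaf and Adgrg1 the 10 day arrays are near saline. Such lack of overlap is found in 10% of all genes.

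Further genes that were highest by p and did not overlap between groups also missed the threshold. Noxred1, an oxidoreductase-like gene, was at -1.12, -0.13 and -0.45 in controls and at 0.70, 1.34 and 1.73 after 2 days, a difference of 1.82 ± 0.35 (adjusted p = 0.167). Nsun7, a gene of the NSUN family of RNA methyltransferases, was at 0.96 ± 0.18 with both probe sets higher. Ak5, the adenylate kinase of brain, was at 0.86 ± 0.17, Car4, a membrane-bound carbonic anhydrase of brain capillaries, at 0.90 ± 0.19, and Rasal1, a calcium-regulated brake on RAS, at 0.86 ± 0.18. Each of these was also higher in the SN, by 0.19 to 0.69. Zwilch, a component of the mitotic checkpoint, was at 1.5 ± 0.31 in VTA and -0.68 ± 0.31 in SN, and the galactokinase gene Galk2 was at 0.69 ± 0.14 and -0.24 ± 0.14. In both genes the controls of the regions differed. Zwilch means were -1.21 in VTA and 0.60 in SN controls, and 0.29 and -0.09 after 2 days. Galk2 means were -0.53 in VTA and 0.16 in SN controls, and 0.16 and -0.09 after 2 days. The kinase gene Dyrk3 was at 1.43 ± 0.33, Mir124a-1hg, the host transcript of a neuronal miRNA, at 1.16 ± 0.25, Cracdl at 0.87 ± 0.17, the ubiquitin ligase gene Traip at 0.86 ± 0.20 and Ttc8, a subunit of the BBSome of cilia, at 0.92 ± 0.21. Against the same VTA controls, every gene named here was also higher after 10 days, from 0.23 in Cracdl to 0.996 in Zwilch.

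Among the lower genes, P2rx7 came closest to the threshold. It encodes an ATP-gated ion channel known from microglia and other immune cells. Its control signals were 0.52, 1.09 and 0.55 and those after 2 days -0.53, -0.22 and -0.69. Without overlap of the groups, the difference was -1.2 ± 0.20, a factor of 2.30 (adjusted p = 0.0982), and all 3 probe sets were lower, from -2.31 to -0.23. In the SN, P2rx7 was at 0.18 ± 0.20, and the responses of the regions differed by -1.38 ± 0.28 (adjusted p = 0.701). The VTA arrays after 10 days also lay wholly below the controls, at -0.75 ± 0.20. The 2 day arrays differed from the 10 day arrays by -0.45 ± 0.20. Of the other purinergic receptors, 0 of 17 had an unadjusted p under 0.05.

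Litaf and Adgrg1 were lower after 2 days than in either other VTA group. Litaf, which encodes a protein of late endosomes and lysosomes, was at 0.07, 0.41 and 0.01 in controls, at -0.82, -0.62 and -0.77 after 2 days and at 0.51, 0.13 and 0.27 after 10 days. It differed from controls by -0.90 ± 0.18 (adjusted p = 0.167) and from 10 days by -1.04 ± 0.18 (adjusted p = 0.0638). Adgrg1, an adhesion G protein-coupled receptor expressed in glial precursors, was at -0.94 ± 0.18 and -0.97 ± 0.18 in these comparisons, with both probe sets lower. Neither passed. In the SN after 2 days Litaf was at -0.02 ± 0.18 and Adgrg1 at -0.18 ± 0.18.

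Antioxidant genes gave no general shift, with 10 of 30 higher, 20 lower and a median of -0.05, but Hmox1 was lower. Hmox1 encodes haem oxygenase 1, a target of the factor NRF2 induced by oxidative stress. It was at 0.70, 0.62 and 1.16 in controls and at -0.84, -0.13 and 0.05 after 2 days, without overlap, a difference of -1.13 ± 0.28 (adjusted p = 0.305). After 10 days Hmox1 was at -0.87 ± 0.28 against the same controls, and 2 and 10 days differed by -0.26 ± 0.28. The extracellular superoxide dismutase gene Sod3 was at -1.05 ± 0.39. No antioxidant gene was higher at an unadjusted p under 0.05.

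The remaining genes among the 15 lowest by p came from varied families. Zfp33b and the pseudogene Zfp133-ps, of the zinc finger family, were at -0.91 ± 0.17 and -1.27 ± 0.26, the centromere gene Cenpq at -1.21 ± 0.25 and the transporter gene Abcc6 at -0.68 ± 0.16. Rhpn2 was at -1.18 ± 0.28, and at -0.80 without array 1 of the 2 day group. The kinase gene Sgk2 was at -1.0 ± 0.24, the angiotensin receptor gene Agtr2 at -0.73 ± 0.18 and Elovl7, which lengthens fatty acids, at -0.64 ± 0.15 with 6 of 6 probe sets lower. None passed, and their adjusted p ran from 0.167 to 0.305. Against the same controls, Zfp33b was at -0.92, Zfp133-ps at -0.89, Cenpq at -0.815, Abcc6 at -0.78 and Rhpn2 at -1.07 after 10 days. Sgk2, Agtr2 and Elovl7 were then at -0.22, -0.36 and -0.055.

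Interferon-stimulated genes, which cells switch on through the factors STAT and IRF9 when they sense virus, were lower in part. Of 27 measured, 7 were higher and 20 lower, with a median of -0.15. At an unadjusted p under 0.05 there were 7 lower and 1 higher, and 6 lay wholly below the controls, where 3.92% of all genes were lower at that p and 4.92% wholly below. Ifit1, which binds viral RNA, was at 1.44, 0.74 and 0.47 in controls and at -0.91, -0.22 and -1.29 after 2 days. That is a difference of -1.69 ± 0.53, with no overlap (adjusted p = 0.406). The antiviral genes Oasl2 at -1.04 ± 0.34 and Oas1a at -0.61 ± 0.25, the GTPase genes Igtp at -0.76 ± 0.35 and Gbp3 at -0.65 ± 0.31, Ifi35 at -0.78 ± 0.36 (-0.36 without array 1 of the 2 day group) and the ubiquitin ligase gene Trim25 at -0.62 ± 0.19 made up the rest. Irf9, the transcription factor itself, was higher at 0.72 ± 0.28. In the SN after 2 days the median of the list was -0.21 with 5 higher, and in VTA after 10 days it was -0.06 with 12 higher. Without array 1 of the 2 day group the VTA median after 2 days was -0.31, with 3 lower at an unadjusted p under 0.05. Among 20 Toll-like receptors and their adaptors the median was -0.10, and the adaptor gene Ticam1, through which Toll-like receptor 3 signals, was at -0.48 ± 0.20 (-0.28 without that array).

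The promoter of Ifit1 (chr19:34640639-34640938, plus strand) shows 2 interferon-stimulated response elements, in capitals, at positions -104 and -85. The motif is GAAA, any 2 bases and GAAA again, was searched on both strands, and appears here as its complement. It occurs in 3.44% of all promoter windows and also in those of Oas1a and Igtp and in 1 of 2 windows of Gbp3, and has no match in those of Oasl2, Trim25 and Ifi35.
Ifit1: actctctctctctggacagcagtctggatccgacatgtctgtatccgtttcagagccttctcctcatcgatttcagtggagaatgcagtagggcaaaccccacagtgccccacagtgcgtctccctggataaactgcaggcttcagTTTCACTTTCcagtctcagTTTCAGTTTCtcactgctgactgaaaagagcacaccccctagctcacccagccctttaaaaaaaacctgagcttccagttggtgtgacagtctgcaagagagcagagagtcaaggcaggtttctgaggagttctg

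Markers of oligodendrocytes, the cells that wrap axons in myelin, were lower after 2 days. Of 14 measured, 13 were lower and 1 higher, with a median of -0.42. At an unadjusted p under 0.05, 5 were lower and 0 higher, where 3.92% and 4.14% of all genes were. Mog, a protein of the outer myelin sheath, was at 0.24, 0.77 and 0.48 in controls and at -0.95, -0.36 and -0.21 after 2 days. Fa2h, which makes the hydroxylated lipids of myelin, was at 0.27, 0.84 and 0.39 in controls and at -0.48, -0.53 and -0.11 after 2 days. Neither gene overlapped between groups, with differences of -1.0 ± 0.23 and -0.87 ± 0.20 (adjusted p = 0.305 for each). The myelin lipid enzyme gene Ugt8a was at -0.75 ± 0.23, the myelin enzyme gene Cnp at -0.45 ± 0.19, Aspa, which cleaves N-acetylaspartate, at -0.50 ± 0.22 and the myelin glycoprotein gene Mag at -0.49 ± 0.30. In laser-captured samples, fewer cells of a type, less RNA per cell and less neighbouring tissue in the cut cannot be told apart.

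The lower oligodendrocyte signal did not rest on array 1 of the 2 day group. Without it the median of the list was -0.49, with 7 markers lower at an unadjusted p under 0.05, where 3.58% of all genes were. Without VTA control array 2 the median was -0.28, with 3 markers lower at that p, where 787 of all 18193 genes were. Over omissions of 1 array it ran from -0.56 to -0.27. Per array, the mean of the list was 0.19, 0.50 and 0.03 in controls and -0.04, -0.34 and -0.17 after 2 days, so the groups did not overlap. In the SN after 2 days the median was -0.14, and after 10 days in VTA it was -0.26. Among 8 markers of oligodendrocyte precursors the median was -0.44 with 6 lower. Their mean per array overlapped, at 0.49, 0.07 and 0.26 in controls and 0.12, -0.30 and -0.08 after 2 days. Olig2 and Olig1, transcription factors of the lineage, were at -0.76 ± 0.20 and -0.45 ± 0.15, both without overlap, and the growth factor receptor gene Pdgfra was at -0.43 ± 0.20. Against the same controls Olig2 was at -0.78 ± 0.20 and Olig1 at -0.22 ± 0.15 after 10 days.

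**Figure D3:**
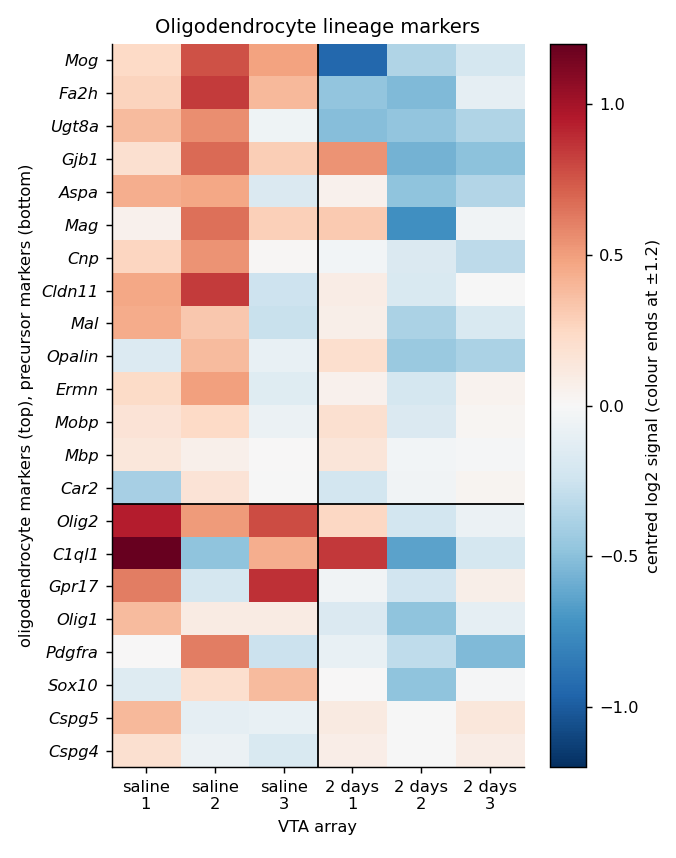
Centred log2 signal (colour, ends at ±1.2) of 14 oligodendrocyte markers and 8 precursor markers in rows, on 3 saline and 3 MPTP 2 day VTA arrays in columns. Most rows are above 0 in the saline arrays and below 0 after 2 days, with medians of -0.42 and -0.44 for the difference.

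Markers of other cells around the neurons were lower too. For endothelium and microglia array 1 of the 2 day group weighed more. The 19 measured markers of endothelium and pericytes had a median of -0.26, with 16 lower. At an unadjusted p under 0.05, where 3.92% of all genes were lower, 5 markers were lower. These were the pericyte channel gene Kcnj8 at -1.16 ± 0.35, the aminopeptidase gene Anpep at -1.58 ± 0.62, Vtn at -0.87 ± 0.37, and the endothelial receptor and junction genes Tie1 at -1.0 ± 0.46 and Esam at -0.56 ± 0.26. Without array 1 the median was -0.12 with 2 markers lower at that p, and Anpep was at -0.98, Tie1 at -0.32 and Esam at -0.25. The list mean was 0.06 to 0.14 in controls and -0.52, -0.21 and -0.03 after 2 days.

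The 19 measured markers of microglia and macrophages, the immune cells of the brain, had a median of -0.28, with 16 lower. Itgam, Ptprc and Csf1r, which encode an integrin, the leukocyte phosphatase CD45 and a growth factor receptor, were at -0.40 ± 0.15, -0.61 ± 0.24 and -0.45 ± 0.19. The Ptprc value came from 1 of its 2 probe sets, at -1.22, with the other at 0.002. Without array 1 the median was -0.14 and 0 markers were lower at an unadjusted p under 0.05. Astrocyte markers had a median of -0.16, with 14 of 17 lower, and of -0.14 without array 1, with 11 lower. Gfap, a filament protein that marks reactive astrocytes, was at -0.93 ± 0.44 (-0.60 without array 1), Ntsr2 at -0.53 ± 0.21 and the enzyme gene Aldh1l1 at -0.39 ± 0.18. The astrocyte list was at 0.20 in the SN after 2 days. No marker of these 3 cell types passed over all genes. The share of these cells in the lower signals of P2rx7, Hmox1 and the interferon-stimulated genes was not tested. Markers of GABA neurons had a median of 0.02 (10 genes) and those of glutamate neurons -0.15 (5 genes), which without array 1 were -0.08 and -0.49. The 4 erythrocyte markers had a median of -0.11, which was 0.03 without it.

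Genes that make and carry dopamine were lower after 2 days, but the size of the difference depended on single arrays. Of 12 measured, 12 were lower, with a median of -0.50. At an unadjusted p under 0.05, where 3.92% of all genes were lower, 1 member was lower. Th, the enzyme that starts dopamine synthesis, was at -0.90, 1.01 and 1.15 in controls and at -0.81, 0.46 and -0.77 after 2 days. Slc6a3, the dopamine transporter gene, was at -0.98, 0.59 and 0.50 in controls and at -1.09, 0.11 and -0.30 after 2 days. In both genes control array 1 was as low as the treated arrays, and the groups overlapped. The differences were -0.79 ± 0.52 and -0.46 ± 0.37 (adjusted p = 0.756 and adjusted p = 0.813).

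In Slc18a2 and Drd2 array 1 was again the lowest of each group. The vesicular transporter gene Slc18a2 was at -0.97, 0.65 and 0.44 in controls and at -1.59, 0.14 and -0.63 after 2 days. Drd2, the autoreceptor, was at -0.04, 0.72 and 1.75 in controls and at -1.83, 0.37 and -0.21 after 2 days, and its difference of -1.37 ± 0.62 was the only one at an unadjusted p under 0.05 (adjusted p = 0.608). The list mean was -0.53, 0.58 and 0.51 in controls and -0.96, 0.09 and -0.23 after 2 days, so array 1 was the lowest of each group. Without control array 1 the median was -0.87 and 8 members were lower at an unadjusted p under 0.05, whereas without array 1 of the 2 day group it was -0.26 with 0 lower. Without control array 2 the median was -0.22 with 1 lower. Of all 18193 genes, 789 were lower at that p without control array 1 and 787 without control array 2. In the SN after 2 days the median of the list was -0.83 with 2 higher. In VTA after 10 days it was -0.14 with 1 higher. Maob, the enzyme that activates MPTP, was at -0.66 ± 0.36, the decarboxylase gene Ddc at -0.40 ± 0.30, Gch1, which supplies the cofactor of Th, at -0.72 ± 0.59 and the aldehyde dehydrogenase gene Aldh1a1 at -0.55 ± 0.38. Without array 1 of the 2 day group several were nearer 0, with Drd2 at -0.73, Maob at -0.38, Slc18a2 and Gch1 at -0.29, Ddc at -0.16, Slc6a3 at -0.13 and Aldh1a1 at -0.01.

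**Figure D4:**
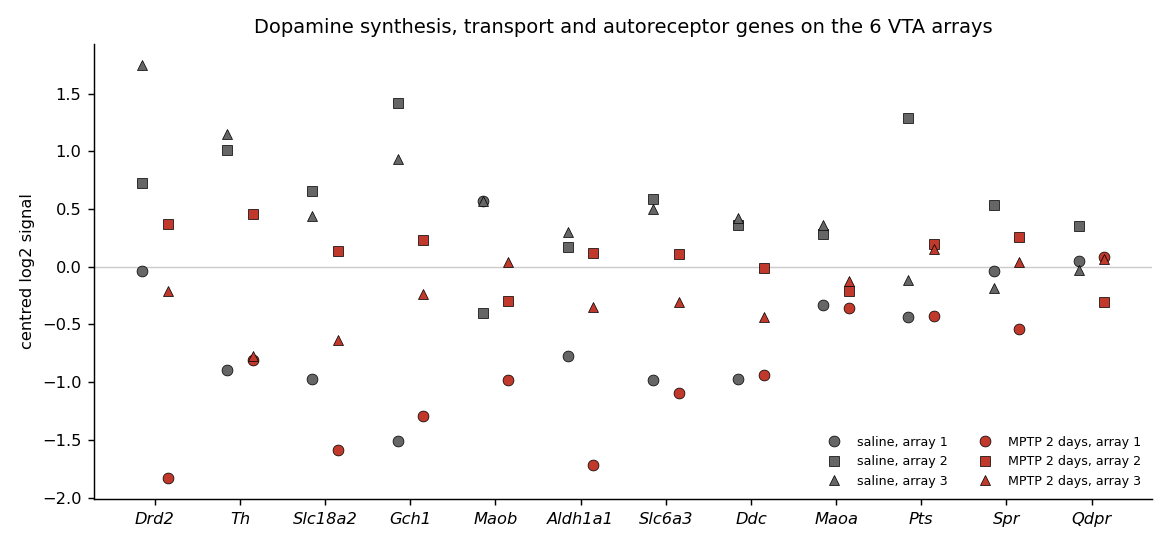
Centred log2 signal (y axis) of 12 genes of dopamine synthesis and transport on 3 saline and 3 MPTP 2 day VTA arrays, with a symbol for each array number. Array 1 is low in both groups for Th, Slc6a3 and Slc18a2, and all 12 differences are below 0 with a median of -0.50.

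Transcription factors of midbrain dopamine neurons had a median of -0.23, with 12 of 13 lower, and without array 1 of the 2 day group of -0.44, with 9 lower. Otx2, which marks VTA neurons and also choroid plexus, was at 0.20, 0.88 and 1.29 in controls and at -0.63, -0.07 and 0.04 after 2 days, without overlap, a difference of -1.01 ± 0.32 (adjusted p = 0.406). Foxa1 was at -0.86 ± 0.30 and En2 at -0.94 ± 0.38 (-0.57 without that array). Nr4a2 and Pitx3, which maintain the dopamine phenotype, were at -0.22 ± 0.14 and -0.06 ± 0.17. The last value turned to 0.09 without array 1 of the 2 day group. Choroid plexus markers had a median of -0.04 over 12 genes, with list means of -0.36 to 0.84 in controls and -0.31 to 0.81 after 2 days.

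Genes that mark VTA over SN dopamine neurons had no common direction, with 10 of 22 higher and a median of -0.02 (0.21 without array 1 of the 2 day group). Tacr3, the neurokinin 3 receptor, was lower at -1.29 ± 0.36, with controls at 0.75, 1.34 and 1.29 and 2 day arrays at 0.05, 0.23 and -0.78. Neurod1, a factor of neuronal differentiation, and Crym, a thyroid hormone-binding protein, were at 0.89 ± 0.30 and 0.77 ± 0.31, with overlap. SN-enriched genes had a median of -0.44 over 17 genes, which was -0.01 without array 1 of the 2 day group and -0.71 without control array 1. Ntsr1, the neurotensin receptor of dopamine neurons, was at -1.17 ± 0.48. The GDNF receptor genes Ret and Gfra1 were at -0.81 ± 0.32 and -0.75 ± 0.30, and the 14 genes of that list had a median of -0.11.

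Genes of the respiratory chain, which the toxic ion blocks at complex I, had medians near 0. The 34 measured subunits of complex I had a median of -0.00, with 17 higher, 17 lower and 0 at an unadjusted p under 0.05, and the 37 genes of complexes II to V had a median of 0.01 and 0. Proteasome subunits, 33 in all, had a median of 0.03 and also 0. Ribosomal protein genes had a median of -0.01 over 33, with Rps6 at 0.46 ± 0.18 and Rps20 at -0.37 ± 0.17, and without array 1 of the 2 day group the median was 0.12 with 28 higher in place of 15. The 2 Rps6 probe sets were at 0.86 and 0.06, and the 4 of Rps20 ran from -0.76 to -0.01. Without array 1 of the 2 day group the proteasome median was 0.10. Among 14 genes of familial Parkinson disease measured here the median was -0.03 (-0.07 without that array), with the phospholipase gene Pla2g6 at -0.63 ± 0.27.

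Genes of the unfolded protein response, which acts on misfolded proteins in the endoplasmic reticulum, divided evenly, 16 higher and 16 lower with a median of 0.00. The chaperone-complex genes Sdf2l1 at 0.73 ± 0.23 and Pdia4 at 0.44 ± 0.15 were higher, without overlap, and Canx at -0.29 ± 0.12, Edem1 at -0.55 ± 0.24 and the glutathione-degrading enzyme gene Chac1 at -0.56 ± 0.27 were lower. Without array 1 of the 2 day group Pdia4 was at 0.25, Edem1 at -0.17 and Chac1 at -0.23, and the members lower at an unadjusted p under 0.05 went from 3 to 0. Against 10 days Sdf2l1 was at 1.06 ± 0.23 (adjusted p = 0.24). Among 34 genes of the BCL2 family, caspases, p53 and death receptors the median was -0.09. The inflammatory caspase gene Casp1, at -0.92 ± 0.28, and the death receptor genes Fas, at -0.64 ± 0.23, and Tnfrsf1a, at -0.58 ± 0.22, were lower, and Apaf1, the scaffold of the apoptosome, was at 0.53 ± 0.24. None passed over all genes.

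**Figure D5:**
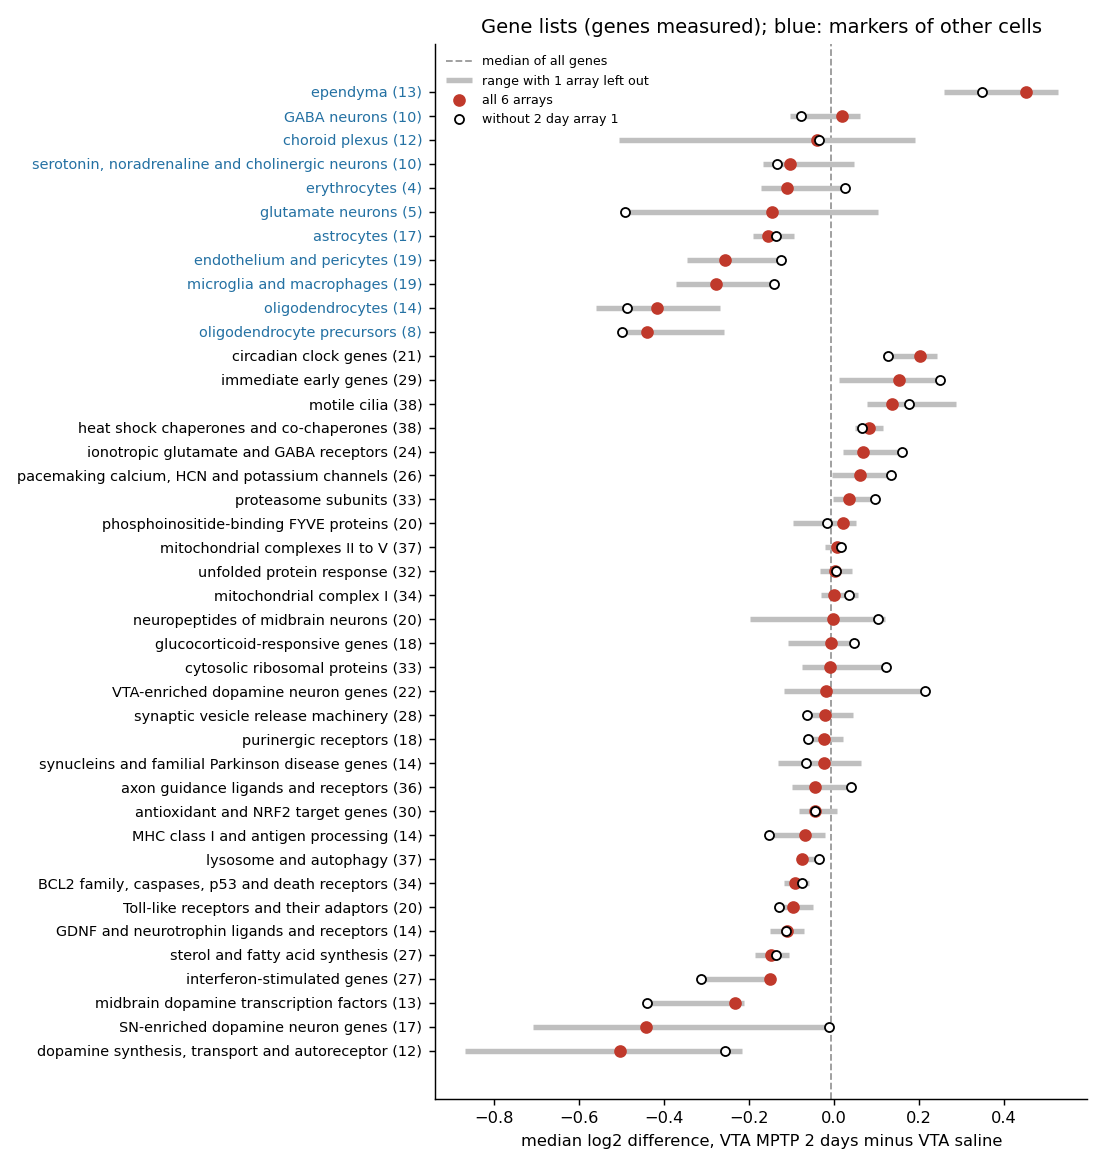
Median log2 difference (x axis) of the genes of each list, 2 days of MPTP minus saline in VTA, with the range over omissions of 1 array in grey and the median without array 1 of the 2 day group as open circles. Oligodendrocyte markers stay below 0 throughout, at -0.42 with all arrays, and SN-enriched genes move from -0.44 to -0.01.

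To compare the regions, the difference between the VTA and SN responses to 2 days was tested in the same model. No gene passed (0 of 18193, 0%), with 601 (3.3%) at an unadjusted p under 0.05, of which 359 (1.97%) were higher and 242 (1.33%) lower in the VTA response. The smallest adjusted p was 0.701 (limma). SN and VTA arrays of one treatment and number were also taken as a random block, with a correlation of 0.187. Then 924 genes were at an unadjusted p under 0.05 and 0 passed, with a smallest adjusted p of 0.232 (limma). The labels give the numbers no shared source. Genes of smallest p included Zfp112, a zinc finger gene, at 0.49 ± 0.14 in VTA and -0.60 ± 0.14 in SN, a difference of 1.09 ± 0.20, and the LIM-domain gene Lmo1 at 0.58 ± 0.18 and -0.74 ± 0.18, a difference of 1.32 ± 0.26. Zfp112 means were -0.53 in VTA and 0.32 in SN controls, and -0.04 and -0.28 after 2 days. Lmo1 means were -0.37 in VTA and 0.60 in SN controls, and 0.215 and -0.14 after 2 days. The zinc finger gene Zfp560 was at 0.14 ± 0.12 in VTA and -0.63 ± 0.12 in SN. On the other side, besides P2rx7, were Trdn, which encodes triadin, at 0.03 ± 0.16 in VTA (0.06 without array 1 of the 2 day group) and 1.02 ± 0.16 in SN, the DNA repair gene Palb2 at -0.56 ± 0.17 and 0.36 ± 0.17, the phosphatase gene Inpp5f at -0.48 ± 0.15 and 0.33 ± 0.15, and the coat protein gene Copg2 at -0.54 ± 0.17 and 0.38 ± 0.17. In VTA the 3 Inpp5f probe sets were at -1.29, -0.10 and -0.06. With 3 arrays per group, the median SE of a main difference was 0.19, which limits what could be told apart.

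Against the arrays after 10 days of MPTP, 6 of 18193 VTA genes passed after 2 days (0.033%), with 1154 (6.34%) at an unadjusted p under 0.05, 579 higher (3.18%) and 575 lower (3.16%). Per2 and Plin4 were higher and Wdfy1 lower after 2 days, as given above. Fbxw17, an F-box gene, was lower after 2 days. It was at -1.10, -0.76 and -0.43 after 2 days, at 1.15, 0.76 and 0.43 after 10 days and at 0.29, -0.08 and 0.07 in controls, so the durations lay on opposite sides of saline. The difference between durations was -1.55 ± 0.22 (adjusted p = 0.0227).

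The other two genes were set apart by the 10 day arrays. H2-K1, a gene of the class I major histocompatibility complex, was at 0.11, -0.41 and -0.12 after 2 days, at -0.54, -0.01 and -0.04 in controls and at 1.32, 0.87 and 1.40 after 10 days. Its 4 probe sets, all _x_at, were uneven after 10 days. There 1425336_x_at was at 3.617, 2.135 and 3.046 and 1451931_x_at at 1.24, 1.24 and 1.66. The others were 1427746_x_at at 0.45, -0.16 and 0.50 and 1450534_x_at at -0.04, 0.28 and 0.38. The setting without _s_at and _x_at probe sets therefore holds no value for H2-K1. AA388235, a gene known by a clone name and named after its values were seen, was at 0.22, -0.16 and -0.14 after 2 days, at -0.08, -0.21 and -0.10 in controls and at 1.11, 0.97 and 1.65 after 10 days. In both genes all 2 day and control arrays lay below all 10 day arrays. The differences of 2 from 10 days were -1.34 ± 0.21 and -1.27 ± 0.20 (adjusted p = 0.0291 for each). E4f1, a transcription factor gene, was higher after 2 than after 10 days by 1.36 ± 0.24 (adjusted p = 0.0638). The calls of this comparison depended on single arrays: 0 genes passed without array 1 or 2 of the 10 day group or without array 1 of the 2 day group (limma), with 1150, 971 and 1049 at an unadjusted p under 0.05, and 1, 3 or 5 passed without each of the others.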

How the data were processed

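RNA of laser-captured dopamine neurons was measured on 18 Affymetrix arrays in 6 groups of 3, with groups and replicate numbers as in their titles. The deposited table holds log2 values for 45101 probe sets, which the authors normalized by RMA in GeneSpring GX 10.0, per the labels' series design text and the submitters' processing notes. That each probe set was centred on its median was found in the values. The array background correction was not given in the sources used here. Probe sets with 1 gene symbol (34945, controls left out) were averaged per gene, giving 18193 genes, so a gene with discordant probe sets can be diluted.

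One limma 3.58.1 model (R 4.3.3) over all 18 arrays gave 12 residual and 4.06 prior degrees of freedom. Tests were two-sided with Benjamini-Hochberg adjustment over all genes and a threshold of 0.05. The number of arrays, 3 per group, limits the precision. Alternatives changed probe set choice, array scaling, weights, blocks, variance prior and the arrays included. The model was tested on simulated data. Promoters were searched with Python 3.11.15, and plots were drawn with matplotlib 3.10.9.

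Members and lists (900 of 995 list entries measured, 41 lists) were chosen with earlier results of these data known. Named genes were those called, the 15 of smallest p in each direction among genes without overlap, up to 2 of each list in each direction at an unadjusted p under 0.05, the 5 of smallest p in each direction of the other comparisons, and a short set named in any case (dopamine genes, Ret and stress genes). Symbols of clones were skipped, except AA388235. Named after their values were seen were Cry1, Hspa2, Ahsa1, Ugt8a, Cnp, Aspa, Pdgfra, Vtn, Tie1, Esam, Meig1, Stoml3, Dnali1, Oasl2, Oas1a, Ifi35, Gbp3, Igtp, Csf1r, Gfap, Tnfrsf1a, En2, Chac1, Per1, Fkbp5, Mag, Foxj1, Maob, Gch1, Aldh1a1 and Arc. Another gene covered by this rule is not reported here.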

Additional observations from a re-analysis of the deposited data

Results flagged for a closer look

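Probe set 1444406_at, which has no gene name in the platform annotation and so lies outside the gene comparison, differed between the VTA groups. It was at -0.38, -0.42 and -0.26 in controls and at 1.01, 0.88 and 1.01 after 2 days of MPTP, a difference of 1.32 ± 0.19 (SE; limma, adjusted p = 0.032 over all probe sets without control probe sets). All 3 treated arrays lay above all 3 controls. Single arrays far from the rest of their group were not looked for in this way, since each group holds 3.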

How the results depend on the processing

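The count of 2 genes after 2 days became 5 with probe sets tested singly, 1 with repeated quantile normalization, with arrays scaled to equal spread or without the 2 arrays of widest spread, and 0 with the probe set of largest SD (1468 at an unadjusted p under 0.05) or with only the groups compared (932), all by limma. Omission of 1 array gave 0 to 4 (0 without VTA control array 2, with 1470 at that p). With the replicate number as a block it was 4, with Folh1 and Hspa1b added, but the labels give the numbers no shared source. Correlations between arrays were taken after each gene's group mean was subtracted. Same-numbered VTA control and 2 day arrays then had 0.096, 0.151 and -0.021. Same-numbered SN and VTA arrays of one treatment had 0.05 to 0.399, over 0.1 in 7 of 9 pairs. Against 10 days the count of 6 became 16 with single probe sets, 10 with the largest SD and 0 with only the groups compared (904 at that p), and 0 to 5 with 1 array left out. The difference of responses gave 0 under all settings run, with 488 to 924 genes at that p, or 1170 with single probe sets. Among 130 named and listed genes, differences near 0 changed sign. Pitx3 was at 0.046 with array weights, 0.09 without the 2 widest arrays and -0.21 to 0.091 over omissions. Trdn was at -0.11 without _s_at and _x_at probe sets and at -0.025 to 0.081 over omissions. AA388235 was at -0.02 without the 2 widest arrays and -0.02 to 0.172 over omissions. H2-K1 was at -0.04 with quantile normalization, -0.012 scaled, -0.026 weighted, -0.066 without the 2 widest arrays and -0.115 to 0.19 over omissions. Foxj1 was at -0.11, -0.10, -0.29 and -0.44 in these 4 settings and -0.437 to 0.349 over omissions. The causes were not tested. The other differences kept their sign.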

Other observations

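Genes of electrical activity held a few higher members after 2 days of MPTP, and their medians depended on array 1 of the 2 day group. Of 24 ionotropic glutamate and GABA receptor genes 17 were higher (70.8%, against 48.4% of all genes), with a median of 0.07 that was 0.16 without that array, and the NMDA receptor subunit gene Grin2c was at 0.51 ± 0.15 and the AMPA receptor subunit gene Gria3 at 0.39 ± 0.16. Of 26 pacemaking channel genes 15 were higher (57.7%), with a median of 0.06 that was 0.13 without it, and the T-type calcium channel gene Cacna1h and the potassium channel gene Kcnma1 were at 0.62 ± 0.22 and 0.39 ± 0.14. Of the 5 Kcnma1 probe sets 3 were higher, with a range from -0.055 to 1.16. The 29 immediate early genes, which neurons switch on with activity, had a median of 0.15 with 20 higher and 0 at an unadjusted p under 0.05, which was 0.25 with 3 higher at that p without array 1 of the 2 day group. Arc, a synaptic gene of this class, was at 0.05, -0.59 and -0.60 in controls and at -0.58, 0.65 and 0.83 after 2 days, so array 1 went against the others, and the difference was 0.68 ± 0.41 with it and 1.12 without it. No gene of these lists passed over all genes.

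Of 27 genes of sterol and fatty acid synthesis 21 were lower, with a median of -0.15 and 0 at an unadjusted p under 0.05. Of 37 lysosome and autophagy genes 24 were lower (median -0.08, or -0.04 without array 1 of the 2 day group), among them the cholesterol transporter gene Npc1 at -0.63 ± 0.26 and the autophagy gene Atg7 at -0.27 ± 0.12. Only 2 of the 4 Atg7 probe sets were lower. Synaptic vesicle genes had a median of -0.02 over 28 (-0.06 without array 1 of the 2 day group), with the synapsin gene Syn2 at 0.41 ± 0.19. Axon guidance genes had a median of -0.04 over 36 (0.04 without it), with the netrin receptor gene Unc5d at 0.54 ± 0.21. Medians were -0.07 over 14 genes of class I antigen presentation (-0.15 without it) and -0.10 over 10 markers of serotonin, noradrenaline and cholinergic neurons, and 10 of 20 midbrain neuropeptide genes were higher.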
